A study of Homo sapiens with 8 samples.

Results

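Transcript levels of 46 genes of the lysosome were followed in HepG2 cells, a human liver cancer line, after exposure to 3 bisphenol antioxidants. The genes are the named lysosomal hydrolases, the subunits of the proton pump, the TFEB family of transcription factors and a few partners of these proteins, taken by symbol from a gene list and not by their level. All 46 were found among the 60230 genes of the count table, and 43 were among the 13404 genes that passed the filter on low counts. CTSZ, CTSF and MITF did not pass it.

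The cells carried a CYP3A4 overexpression construct and were grown under blasticidin, and this holds for the control samples too. CYP3A4, a drug-metabolising cytochrome P450, was at 198 and 206.5 CPM (TMM-scaled, a gene's count relative to the total of its library) in DMSO, 287 and 216 in compound 4, 371 and 421 in compound 5 and 170.5 and 170.5 in compound 6. It was thus not level across the groups: it was 1.96-fold higher with compound 5 than with DMSO (adjusted p = 0.000724) and 2.32-fold higher than with compound 6 (adjusted p = 0.00138), and the part of this in the results was not tested. The 4 groups, each with 2 replicates, were DMSO at 0.2%, compound 4, compound 5 and compound 6, applied for a day. In compounds 4 and 6, a methylene bridge joins a pair of methylphenol rings that carry tert-butyl groups in compound 4 and cyclohexyl groups in compound 6. Compound 5 has an ethane-derived bridge, and its phenol rings carry tert-butyl groups and no methyl group. Each compound was given at its own IC50, so the concentrations differed and comparisons between compounds are of these treatments, not of matched doses. The model is a single hepatoma line with 1 transgene, replicate 1 of compounds 4 and 5 are each marked in the labels as a merge of 2 numbered entries, and the labels do not say that replicates were separate cultures. The p-values therefore measure the spread between these samples only.

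Lysosomal hydrolases break down proteins, glycans, sulfated sugars and lipids, and most of them work only at acidic pH. The V-ATPase provides that acid: its membrane sector V0 carries protons inwards while its cytosolic sector V1 hydrolyses ATP. TFEB, TFE3 and MITF are bHLH factors that switch on genes of both kinds through E-box motifs of the CLEAR type, and folliculin with the Rag GTPases controls whether these factors stay in the cytosol.

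RefSeq promoters, from 250 bases before to 50 bases after the start, were at hand for 32 of the 46 genes. The palindrome CACGTG, searched on both strands at once because it reads the same on each, stood in 12 of the 38 promoters of these genes (31.6%), a single promoter in each of 12 genes, against 7.26% of all 35116 promoters of the same length. Its longer form TCACGTGA, which contains it, stood in 7 of the 38 (18.4%, against 0.98%). The windows below are shown because they belong to the 6 genes with such a motif that rose with compound 4, and to RRAGC, which rose with compound 5. All are 30 bases of GRCh38.p14 in the direction of the gene, with CACGTG in capitals.
MCOLN1, chr19:7522598-7522627 (+): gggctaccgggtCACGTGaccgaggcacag
GALNS, chr16:88857104-88857133 (-): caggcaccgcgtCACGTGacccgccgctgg
LAMP1, chr13:113297035-113297064 (+): accaggccgggtCACGTGggtccagggtca
CTSD, chr11:1763957-1763986 (-): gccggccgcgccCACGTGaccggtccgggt
ATP6V0B, chr1:43974891-43974920 (+): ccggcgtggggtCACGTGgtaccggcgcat
ATP6V0D1, chr16:67481199-67481228 (-): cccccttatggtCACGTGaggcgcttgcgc
RRAGC, chr1:38859867-38859896 (-): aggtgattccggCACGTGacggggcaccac

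Genes with the motif were not all higher. GAA, the acid alpha-glucosidase, and CTSA, the protective protein cathepsin A, hold it as well and did not pass the test against DMSO with any compound. Their windows are given for comparison with those above.
GAA, chr17:80101493-80101522 (+): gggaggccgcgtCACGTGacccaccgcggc
CTSA, chr20:45891281-45891310 (+): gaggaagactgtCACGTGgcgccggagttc

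In all, 23 such motifs lay in the 12 promoters, 14 of them within 60 bases before the start, and LAMP1 held 6. Among the tested genes with a promoter in the table, 6 of 11 with the motif and 4 of 18 without it passed the test as higher with compound 4. With compound 5 the counts were 4 of 11 and 5 of 18, and with compound 6 they were 0 of 11 and 1 of 18. Of all genes tested, 6.5%, 13.9% and 2.8% were called higher with compounds 4, 5 and 6. CTSB, ASAH1 and PSAP passed with compound 4, CTSB, LAMP2 and NAGLU with compound 5, and CTSB with compound 6. They had no promoter at hand, so the counts with and without the motif leave them out. The share of genes called with and without the motif was not tested, and a match in sequence is not a bound site.

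**Figure D1:**
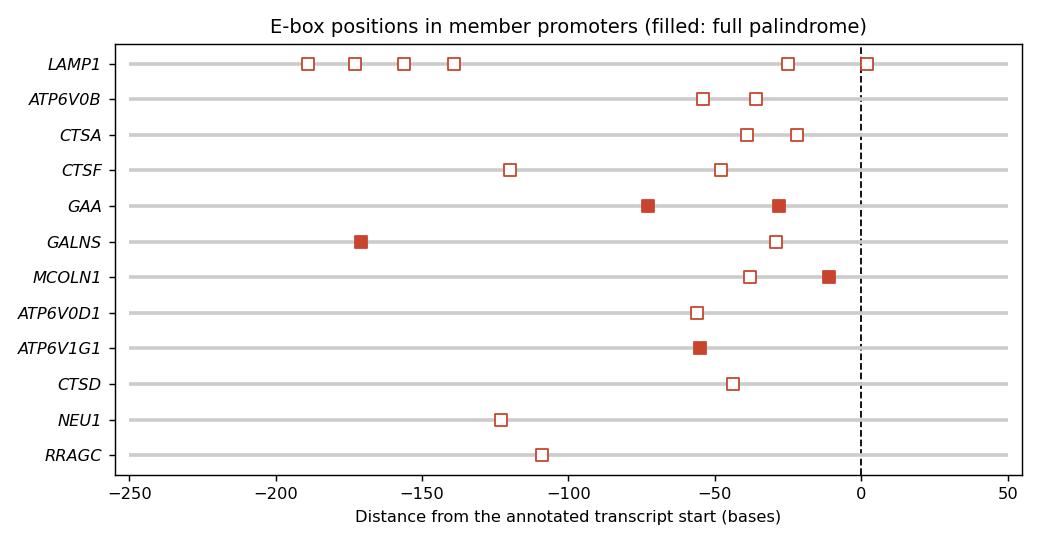
Position of each CACGTG motif (x axis, bases from the transcription start) in the RefSeq promoters of the 12 listed genes that hold one (y axis, one row per gene). Of the 23 motifs, 14 lie within 60 bases before the start, and LAMP1 has 6.

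The 8 samples held between 9472261 and 13308975 counts. TMM factors were 1.02 and 1.04 in DMSO, 1.01 and 0.997 in compound 4, 1.01 in both samples of compound 6 and 0.958 in both samples of compound 5. Mitochondrial genes took 4.91 and 5.12% of counts in DMSO and a higher share, 5.31 to 6.22%, in the 6 treated samples, and the part of this in the results was not tested. The liver markers were expressed in each sample: all 10 of the list were detected, with a summed level of 40680 to 42700 CPM with DMSO and 32500 to 32970, 34130 to 34300 and 32960 to 39330 CPM with compounds 4, 5 and 6. APOA1 and TF were called lower with each compound and AFP with compounds 4 and 5, while APOA2 and TTR were called higher with compound 4. Of 8 macrophage markers, 5 (PTPRC, CSF1R, MARCO, CD163 and CD5L) were at 0 in all 8 samples, and the list summed to 2411 to 3031 CPM with DMSO and 2138 to 2499, 1890 to 2064 and 2226 to 2696 CPM with the compounds. LYZ made up nearly all of this sum in each group, with 2993 and 2383 CPM in DMSO. With compounds 4, 5 and 6 it was at 2081 and 2440, 2025 and 1854, and 2644 and 2177 CPM. CD68, itself a lysosomal membrane glycoprotein, rose with compound 4 (log2 fold change 0.80, adjusted p = 0.0079). LYZ was lower with compound 5 (adjusted p = 0.0315). CD14 was called higher with compound 4 (adjusted p = 0.0162) and compound 6 (adjusted p = 0.0476), but from very few counts. Its DMSO samples held only 1 and 2 counts, and the treated samples ranged from 5 to 16. The size of this CD14 rise is therefore uncertain. PDGFRB, the only fibroblast marker that could be tested, was higher with compound 4 (3.48-fold, adjusted p = 0.00864). Fibroblast markers summed to at most 8.72 CPM and endothelial markers to at most 2.40 CPM in any sample. The part of these marker changes in the results was not tested. Fewer cells of a type and less RNA per cell cannot be told apart in such bulk samples.

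With compound 4, part of the listed genes rose and none passed the test as lower. The 46 genes took 0.698 to 0.734% of all counts against 0.518 to 0.557% with DMSO. CTSB carried much of that rise, and without it the other listed genes took 0.547 to 0.583% against 0.453 to 0.484%. Of the 43 tested, 13 rose and 0 fell at an adjusted p under 0.05 (edgeR quasi-likelihood test, adjusted over all genes tested), which is 30.2%, where 11.9% of all genes were called (6.5% higher, 5.42% lower). In 33 of the 43 both treated samples lay above both DMSO samples, and in 2 both lay below, against 27.5% and 27.1% of all genes. The median log2 fold change over the 43 was 0.28 ± 0.095 (SD, n = 2 per group), and that of all genes was 0. The share called depended on the fit. A fit of the 2 groups alone called 20.9% of the listed genes beside 10.2% of all genes, and library-size scaling 23.3% beside 12.3%. Leaving out either DMSO replicate lowered the calls, both in the list and over all genes.

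With compound 5, the picture was mixed. The genes took 0.554 to 0.585% of counts. Without CTSB the others took 0.465 to 0.483%, within the range of 0.453 to 0.484% with DMSO. Again 13 of 43 passed the test, 11 higher and 2 lower, but this 30.2% stands beside 28.1% of all genes called (13.9% higher, 14.2% lower), so that the share called was close to the background in this fit. With scaling to library size alone, which lowered the median of all genes by 0.105, the counts were 10 higher and 4 lower, and with DESeq2 they were 14 higher and 2 lower. The distance to the background depended on the fit. Library-size scaling called 32.6% of the listed genes beside 30.4% of all genes, upper-quartile scaling 32.6% beside 29.6%, and the fit without DMSO replicate 2 called 16.3% beside 15%. DESeq2 called 37.2% beside 22.6%, and a fit of the 2 groups alone called 53.5% beside 39.5%. The median log2 fold change was 0.204 ± 0.112 (SD, n = 2 per group), where that of all genes was -0.032. Both treated samples lay above both DMSO samples in 23 genes and below in 10, against 32.9% and 37.3% of all genes.

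With compound 6, only CTSB and CTSL passed the test, both higher. The 2 of 43 genes are 4.65%, beside 4.4% of all genes called (2.8% higher, 1.6% lower). The share of counts was 0.601 to 0.607%. Without CTSB it was 0.495 to 0.51%, against 0.453 to 0.484% with DMSO. The median log2 fold change was 0.129 ± 0.077 (SD, n = 2 per group), with 0.003 for all genes. Both treated samples were above both DMSO samples in 19 genes and below in 5, against 26.3% and 26.6% of all genes.

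The comparisons with DMSO share their control samples. That a gene passed with one compound and missed with another does not show that the compounds differ, which the direct comparisons further on address.

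**Figure D2:**
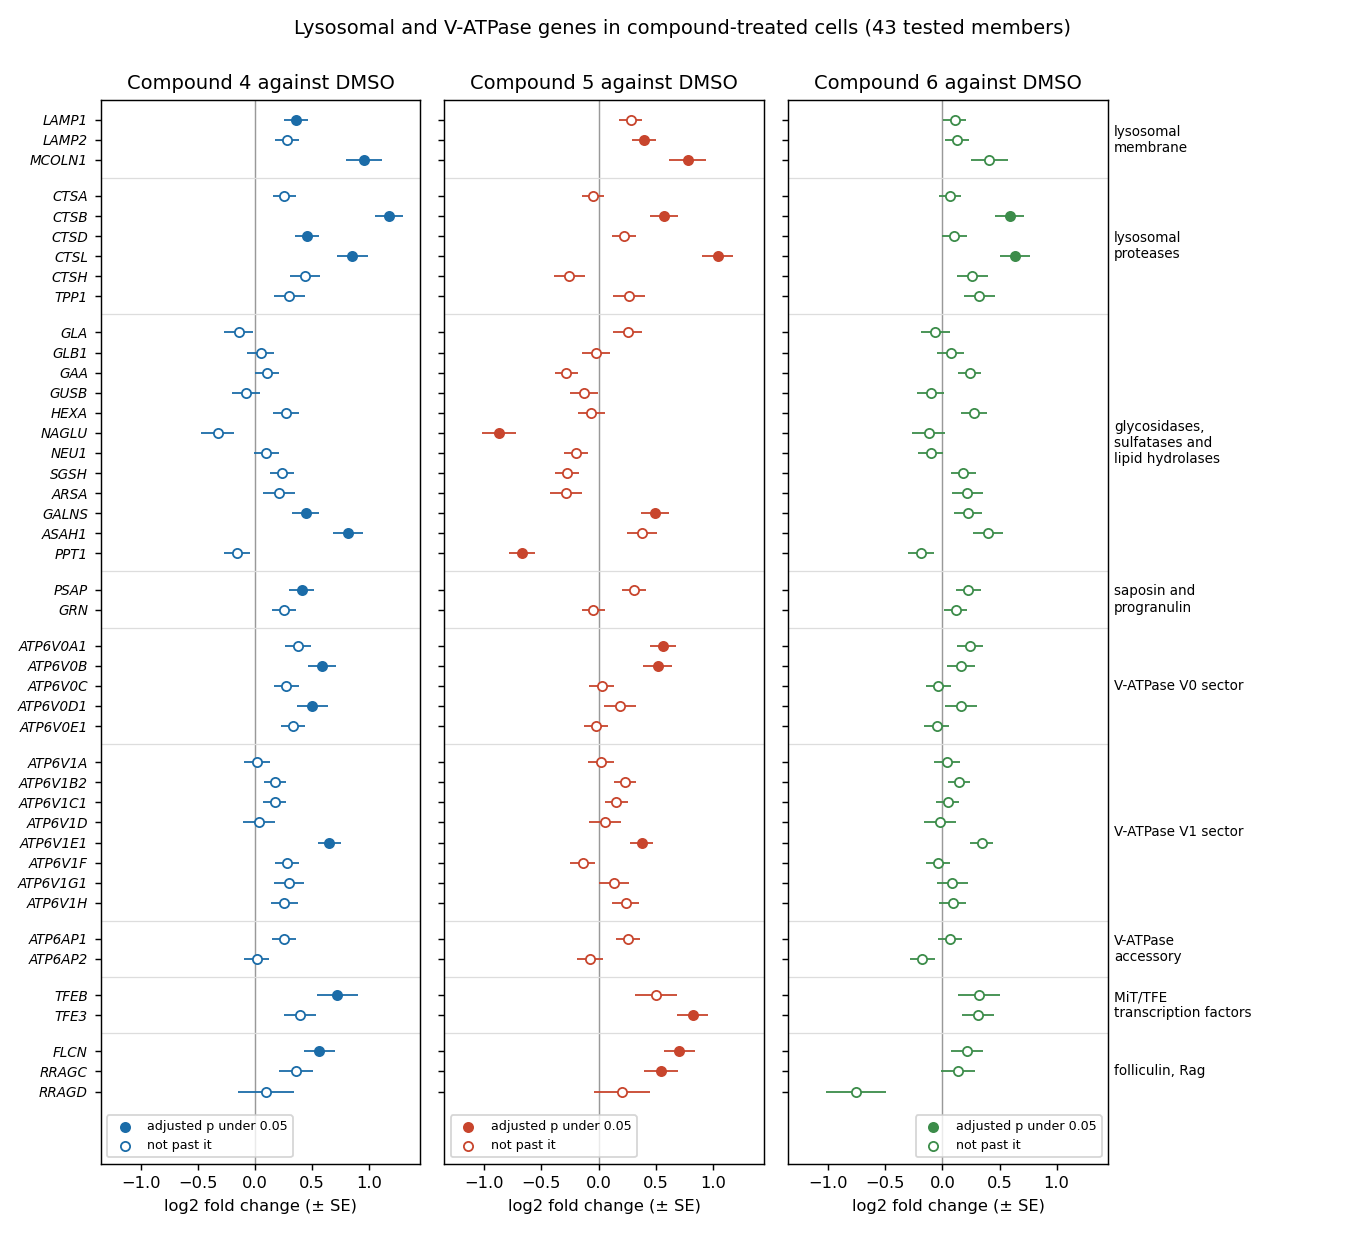
Log2 fold change against DMSO (x axis, ± SE) of the 43 tested genes (y axis, grouped by role) with compounds 4, 5 and 6. Filled points passed an adjusted p under 0.05: 13 with compound 4, all higher, 13 with compound 5, of which NAGLU and PPT1 are lower, and CTSB and CTSL with compound 6.

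The transcription factors come first by role. TFEB (chr6:41683978-41736259) was at 7.38 and 8.63 CPM in DMSO, 13.7 and 12.9 in compound 4, 11.4 and 11.4 in compound 5 and 8.45 and 11.4 in compound 6. Both samples of compounds 4 and 5 lay above the controls, while compound 6 overlapped them. The rise passed the test with compound 4 (log2 fold change 0.72 ± 0.18 SE, adjusted p = 0.025) and not with compound 5 (0.50, adjusted p = 0.0614) or compound 6 (0.32, adjusted p = 0.375).

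TFE3 (chrX:49028726-49043486), a close relative of TFEB, was at 40.2 and 46.9 CPM in DMSO, 58.1 and 56.5 in compound 4, 77.1 and 77.2 in compound 5 and 46.6 and 61.4 in compound 6. It rose 1.77-fold with compound 5 (log2 fold change 0.82 ± 0.14 SE, adjusted p = 0.00197), and gave 0.39 with compound 4 (adjusted p = 0.0938) and 0.31 with compound 6 (adjusted p = 0.246). MITF had 5 and 1 counts with DMSO and between 1 and 9 counts in the treated samples, so a difference was not detectable at this depth, where 3 counts amount to 0.225 to 0.317 CPM.

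FLCN (chr17:17212212-17237188) encodes folliculin, which activates RagC and RagD and so holds the factors in the cytosol. It was at 30.2 and 25.5 CPM in DMSO, 39.3 and 42.9 in compound 4, 47.2 and 43.5 in compound 5 and 29.4 and 35.1 in compound 6. It rose with compound 5 (log2 fold change 0.70 ± 0.14 SE, adjusted p = 0.00395) and compound 4 (0.56 ± 0.14 SE, adjusted p = 0.0223), and compound 6 overlapped the controls.

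RRAGC and RRAGD encode the Rag GTPases that folliculin acts on. RRAGC was at 18.8 and 16.5 CPM in DMSO, 24.1 and 21.1 in compound 4, 28.2 and 23.4 in compound 5 and 18.4 and 20.3 in compound 6, and passed the test with compound 5 (log2 fold change 0.55, adjusted p = 0.0203). Of the 31-base words of its transcripts, 24.7% occur in other genes too, so its counts are less certain. RRAGD was at 4.92 and 6.08 CPM in DMSO, 5.99 and 5.85 in compound 4, 7.7 and 5.1 in compound 5 and 3.13 and 3.38 in compound 6. Its log2 fold change of -0.76 ± 0.26 SE with compound 6 did not pass (adjusted p = 0.133), although both samples lay below the controls.

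Of these regulators, the compound 5 calls of TFE3 and FLCN held in each of the 8 fits that left out 1 sample. TFEB with compound 4 lost its call without either DMSO replicate or compound 4 replicate 1, and with DESeq2. FLCN with compound 4 lost it without either DMSO replicate or compound 4 replicate 2, and RRAGC with compound 5 without either DMSO replicate or compound 5 replicate 1.

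Among the membrane proteins, MCOLN1 (chr19:7522626-7534009), the mucolipin calcium channel of the lysosome, was at 7.58 and 7.89 CPM in DMSO. It reached 15.1 and 15.1 in compound 4, 14.6 and 12.1 in compound 5 and 10.9 and 9.72 in compound 6, so that the treated samples all lay above the controls. The rise was 1.94-fold with compound 4 (log2 fold change 0.96 ± 0.16 SE, adjusted p = 0.00401) and 1.72-fold with compound 5 (0.78 ± 0.16 SE, adjusted p = 0.00559), and both calls held whichever sample was left out. With compound 6 the value was 0.41 ± 0.17 SE (adjusted p = 0.194).

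The abundant membrane glycoproteins LAMP1 and LAMP2 line the lysosome. LAMP1 was at 209 and 212 CPM in DMSO, 266 and 274 in compound 4, 274 and 238 in compound 5 and 230 and 224 in compound 6, and passed with compound 4 only (log2 fold change 0.36, adjusted p = 0.0437; 0.0544 with the replicate number as a block). LAMP2 was at 168 and 156 CPM in DMSO, 192 and 202 in compound 4, 226 and 201 in compound 5 and 178 and 177 in compound 6, and passed with compound 5 (0.40, adjusted p = 0.0156). LAMP1 lost its call on leaving out any sample of DMSO, compound 4 or compound 5, and LAMP2 without either DMSO replicate or compound 5 replicate 1.

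The largest rise with each compound was that of a protease, CTSB with compound 4 and CTSL with compounds 5 and 6. CTSB encodes cathepsin B, a cysteine protease. It was at 715 and 626 CPM in DMSO, 1508 and 1519 in compound 4, 1058 and 935 in compound 5 and 905 and 1112 in compound 6, with no overlap between treated and control samples. It rose 2.26-fold with compound 4 (log2 fold change 1.17 ± 0.13 SE, adjusted p = 0.00052), 1.49-fold with compound 5 (0.57 ± 0.12 SE, adjusted p = 0.00736) and 1.51-fold with compound 6 (0.59 ± 0.13 SE, adjusted p = 0.0286).

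CTSL (chr9:87725519-87731393), cathepsin L, was at 54.4 and 48.8 CPM in DMSO, 96.2 and 90.4 in compound 4, 114 and 98.7 in compound 5 and 71.2 and 88.8 in compound 6. The groups did not overlap with DMSO here either. The rise was 1.81-fold with compound 4 (log2 fold change 0.85 ± 0.13 SE, adjusted p = 0.00294), 2.06-fold with compound 5 (1.04 ± 0.13 SE, adjusted p = 0.000473) and 1.55-fold with compound 6 (0.63 ± 0.13 SE, adjusted p = 0.0282).

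CTSD, the aspartic protease cathepsin D, was at 466 and 404 CPM in DMSO, 566 and 630 in compound 4, 513 and 501 in compound 5 and 461 and 474 in compound 6. It passed with compound 4 alone (log2 fold change 0.46 ± 0.11 SE, adjusted p = 0.0193), and 38.5% of its 31-base words occur in other genes. CTSH, an aminopeptidase cathepsin, was at 308 and 291 CPM in DMSO, 354 and 458 in compound 4, 227 and 274 in compound 5 and 362 and 357 in compound 6. It lay above the controls with compounds 4 and 6 and below them with compound 5, and none of the 3 differences passed the test (adjusted p from 0.0595 to 0.316). CTSA and the tripeptidyl peptidase TPP1 did not pass either. CTSZ had 1 to 3 counts and CTSF 0 to 6 counts per sample, too few to detect a difference.

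In total 3 of 6 tested proteases rose with compound 4, 2 with compound 5 and 2 with compound 6, and 0 fell. Of all genes, 6.5%, 13.9% and 2.8% were called higher with these compounds, and the 33.3% of proteases called with compound 5 is near the 28.1% of all genes called there. Leaving out 1 sample left CTSB with compound 4 and CTSL with compound 5 past the threshold each time. CTSL with compound 4 lost its call without DMSO replicate 2 and CTSD without DMSO replicate 2 or compound 4 replicate 2, while CTSB with compound 5 lost it without DMSO replicate 2 or compound 5 replicate 1. The compound 6 calls of CTSB and CTSL rest on particular samples. Their adjusted p-values were 0.0916 and 0.111 without DMSO replicate 1, 0.224 and 0.223 without DMSO replicate 2, and 0.298 and 0.293 without compound 6 replicate 2.

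**Figure D3:**
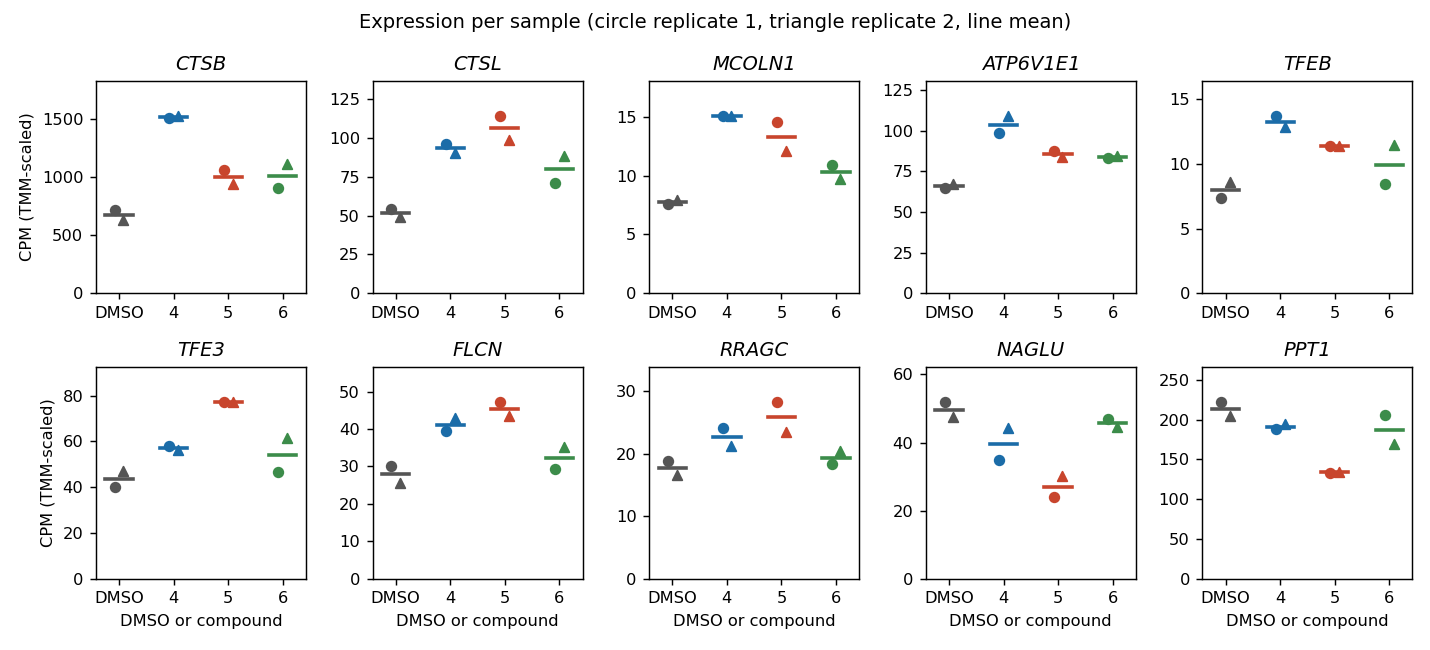
TMM-scaled CPM (y axis, linear from 0) in each of the 8 samples, by group (x axis), for 10 of the genes described. Circles and triangles are replicates 1 and 2, and lines are group means. CTSB rises from 715 and 626 CPM in DMSO to 1508 and 1519 in compound 4, and NAGLU falls from 51.9 and 47.3 CPM to 24 and 30.1 in compound 5.

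The enzymes that cut sugars, sulfates and lipids moved in both directions. Of 12 tested, 2 rose and 0 fell with compound 4, 1 rose and 2 fell with compound 5, and 0 passed with compound 6, where 3 had an unadjusted p under 0.05 (DESeq2 called the same 2 genes of the whole list, CTSB and CTSL). The shares called, 16.7%, 25% and 0%, stand beside 11.9%, 28.1% and 4.4% of all genes. Their median log2 fold changes were 0.104, -0.162 and 0.128. With compound 5 both samples lay below both DMSO samples in 7 of the 12 and above in 3, whereas with compounds 4 and 6 they lay above in 6 and below in 2. Over all genes these shares were 37.3% below and 32.9% above with compound 5. For compound 4 they were 27.1% below and 27.5% above, and for compound 6 they were 26.6% below and 26.3% above.

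NAGLU (chr17:42536172-42544449), which removes N-acetylglucosamine from heparan sulfate, was at 51.9 and 47.3 CPM in DMSO, 34.9 and 44.2 in compound 4, 24 and 30.1 in compound 5 and 46.8 and 44.5 in compound 6. With compound 5 it fell to 0.547 of the control level (log2 fold change -0.87 ± 0.15 SE, adjusted p = 0.0022). The values with compound 4 (-0.32, adjusted p = 0.182) and compound 6 (-0.12, adjusted p = 0.705) did not pass.

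PPT1 (chr1:40071461-40097727), the thioesterase that takes palmitate off proteins, was at 222 and 204 CPM in DMSO, 189 and 194 in compound 4, 133 and 134 in compound 5 and 206 and 169 in compound 6. It fell to 0.627 with compound 5 (log2 fold change -0.67 ± 0.11 SE, adjusted p = 0.00202). The falls of NAGLU and PPT1 with compound 5 held in all 8 fits that left out 1 sample.

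The enzymes that rose were ASAH1 and GALNS. ASAH1, the acid ceramidase, was at 75.7 and 64.9 CPM in DMSO, 133 and 115 in compound 4, 100 and 83.2 in compound 5 and 90.4 and 95.1 in compound 6. It rose 1.76-fold with compound 4 (log2 fold change 0.82 ± 0.13 SE, adjusted p = 0.00333). With compound 5 its log2 fold change was 0.38 (adjusted p = 0.0506, and 0.0378 with the replicate block), and with compound 6 it was 0.40 (adjusted p = 0.113).

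GALNS, a sulfatase of keratan sulfate, was at 22.7 and 22.7 CPM in DMSO, 31.2 and 30.7 in compound 4, 31.5 and 32.3 in compound 5 and 24.8 and 28.2 in compound 6. It passed with compound 4 (log2 fold change 0.45, adjusted p = 0.0366) and compound 5 (0.49, adjusted p = 0.0127), and none of its treated samples overlapped the controls. ASAH1 with compound 4 lost its call without DMSO replicate 2, GALNS with compound 4 on leaving out any sample of DMSO, compound 4 or compound 5, and with DESeq2, and GALNS with compound 5 without any one sample of DMSO or compound 5. The remaining 8 enzymes, GLA, GLB1, GAA, GUSB, HEXA, NEU1, SGSH and ARSA, did not pass against DMSO with any compound.

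Of the precursors of hydrolase cofactors, PSAP, which is cut into the saposins, was at 544 and 470 CPM in DMSO and 642 and 706 in compound 4. Its rise passed the test (log2 fold change 0.41 ± 0.11 SE, adjusted p = 0.031), though not without any one sample of DMSO or compound 5, or without compound 4 replicate 2. It was at 643 and 615 CPM with compound 5 (0.31, adjusted p = 0.0505) and 594 and 594 in compound 6. GRN, progranulin, did not pass with any compound.

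All 15 listed V-ATPase genes had a positive log2 fold change with compound 4, at 0.02 to 0.65, and 3 passed the test. With compound 5, 12 were positive and 3 passed, and with compound 6, 10 were positive and 0 passed, with 1 at an unadjusted p under 0.05. How many of the small values were positive depended on the fit: with library size alone, 12, 9 and 10 of the 15 were positive with compounds 4, 5 and 6, and without DMSO replicate 2 they were 13, 11 and 8. The median log2 fold changes were 0.275, 0.154 and 0.068. The 20% called with compound 4 stands above the 11.9% of all genes, and the 20% called with compound 5 lies below its 28.1%.

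In the membrane sector V0, ATP6V0B was at 114 and 108 CPM in DMSO, 146 and 187 in compound 4, 153 and 164 in compound 5 and 123 and 126 in compound 6. This proteolipid-ring subunit rose with compound 4 (log2 fold change 0.59 ± 0.12 SE, adjusted p = 0.0127) and compound 5 (0.52 ± 0.12 SE, adjusted p = 0.0118). ATP6V0A1, a large a subunit through which protons pass, was at 59.4 and 57 CPM in DMSO, 79.6 and 71.8 in compound 4, 91.3 and 80.5 in compound 5 and 65.5 and 72 in compound 6. It passed with compound 5 (0.56 ± 0.11 SE, adjusted p = 0.00509) and not with compound 4 (0.38, adjusted p = 0.0546).

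ATP6V0D1, which couples the rotor to the ring, was at 40.7 and 35.1 CPM in DMSO, 50.7 and 56.5 in compound 4, 45.8 and 40.3 in compound 5 and 46.8 and 38.2 in compound 6, and passed with compound 4 only (0.50, adjusted p = 0.0383). ATP6V0C, of whose 31-base words 68.3% occur in other genes, and ATP6V0E1 did not pass.

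In the cytosolic sector V1, 1 of 8 subunits passed with each of compounds 4 and 5, which is 12.5% beside 11.9% and 28.1% of all genes. That subunit was ATP6V1E1, of the peripheral stalk, at 64.9 and 67 CPM in DMSO, 98.6 and 109 in compound 4, 87.6 and 83.6 in compound 5 and 83 and 84.4 in compound 6. All treated samples lay above the controls. The rise was 1.57-fold with compound 4 (log2 fold change 0.65 ± 0.10 SE, adjusted p = 0.00294), 1.30-fold with compound 5 (0.38 ± 0.10 SE, adjusted p = 0.0201) and 1.27-fold with compound 6 (0.34 ± 0.10 SE, adjusted p = 0.0844). The catalytic subunit ATP6V1A, the regulatory subunit ATP6V1B2, the other 5 V1 subunits and the accessory proteins ATP6AP1 and ATP6AP2 did not pass with any compound.

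Of the pump's calls, that of ATP6V1E1 with compound 4 held whichever sample was left out. ATP6V0A1 with compound 5 lost its call without compound 5 replicate 1, ATP6V0B with compound 4 without either DMSO replicate, and ATP6V0B with compound 5 without either DMSO replicate or compound 5 replicate 2. ATP6V0D1 with compound 4 lost it without any one sample of DMSO or compound 5 or without compound 4 replicate 2, and ATP6V1E1 with compound 5 without any one sample of DMSO or compound 5 and with upper-quartile or library-size scaling.

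The compounds were then compared directly, in 3 pairs. Compound 5 against compound 4 gave 10 of 43 genes called, 0 higher and 10 lower, where 13.9% of all genes were called (6.91% higher, 7.04% lower). The hydrolases held 8 of the 10, out of 18 tested (44.4%), with a median log2 difference of -0.32 over the 18. The largest differences were in CTSH (-0.70, 95% interval -0.998 to -0.40, adjusted p = 0.0124) and CTSB (-0.60, -0.88 to -0.33, adjusted p = 0.0155). NAGLU (-0.55, adjusted p = 0.0386), PPT1 (-0.52, adjusted p = 0.0182), SGSH (adjusted p = 0.0149), ARSA (-0.50, adjusted p = 0.0418), ASAH1 (-0.44, adjusted p = 0.0479) and GAA (-0.39, adjusted p = 0.0333) followed. Of the pump, ATP6V1F (-0.42, adjusted p = 0.0302) and ATP6V0E1 (-0.35, adjusted p = 0.0487, and 0.0597 with the replicate block) were lower.

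Compound 5 against compound 6 gave 9 genes called, 3 higher and 6 lower, with 9.91% of all genes called (4.76% higher, 5.16% lower). The 6 lower genes were hydrolases, 33.3% of the 18 tested. NAGLU differed most (-0.75, 95% interval -1.08 to -0.42, adjusted p = 0.0138), followed by GAA (-0.52, adjusted p = 0.0131), CTSH (-0.52, adjusted p = 0.0381), ARSA (-0.51, adjusted p = 0.0478), PPT1 (-0.49, adjusted p = 0.0251) and SGSH (-0.46, adjusted p = 0.0229). The 3 higher genes were the regulators RRAGD (0.96, 95% interval 0.39 to 1.53, adjusted p = 0.0423, and 0.0576 with the block), TFE3 (0.51, 0.21 to 0.81, adjusted p = 0.0416) and FLCN (0.49, 0.19 to 0.78, adjusted p = 0.0463, and 0.0595 with the block).

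The enzymes ARSA, CTSH, GAA, NAGLU, PPT1 and SGSH were called lower in both comparisons, which share the compound 5 samples, so that one does not support the other. The per-sample values show where each stood. SGSH, the sulfamidase of heparan sulfate, was at 64.6 and 63.7 CPM in DMSO, 71 and 80.1 in compound 4, 51.9 and 53.9 in compound 5 and 71.2 and 74.5 in compound 6. ARSA, which desulfates sulfatide, was at 22.7 and 19.6 CPM in DMSO, 23.9 and 25 in compound 4, 18.9 and 15.9 in compound 5 and 25.4 and 23.9 in compound 6. GAA was at 144 and 146 CPM in DMSO, 147 and 166 in compound 4, 123 and 116 in compound 5 and 169 and 174 in compound 6. In each of the 3 the compound 5 samples lay below all 6 others, on the side of DMSO away from compounds 4 and 6, and none passed against DMSO itself (adjusted p from 0.0616 to 0.153 with compound 5).

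These direct comparisons rest on few samples. Without compound 5 replicate 1 the 10 and 9 calls became 0 and 0, and without compound 5 replicate 2 they became 1 and 1. The calls over all genes fell with them, from 1869 and 1329 to 111 and 143 without compound 5 replicate 1 and to 167 and 278 without compound 5 replicate 2. Without DMSO replicate 1 they became 4 and 4, and without DMSO replicate 2 they became 4 and 2. Without DMSO replicate 1 this was 9.3% of the listed genes beside 8.68% of all genes against compound 4 and 9.3% beside 6.39% against compound 6, and without DMSO replicate 2 it was 9.3% beside 9% and 4.65% beside 6.66%. Without compound 4 replicate 2, 2 genes were called against compound 4, or 4.65% beside 4.32% of all genes. Without compound 6 replicate 1, 0 were called against compound 6 by edgeR, beside 1.57% of all genes. Against compound 4, ASAH1 lost its call whichever sample was left out. ARSA, NAGLU and ATP6V0E1 lost theirs on leaving out any sample but compound 4 replicate 1. With DESeq2, ARSA missed the threshold in both comparisons, ATP6V0E1 and ATP6V1F missed it against compound 4 and RRAGD against compound 6. With upper-quartile or library-size scaling, TFE3, FLCN and RRAGD missed it against compound 6. With RLE scaling, ASAH1 and ATP6V0E1 missed it against compound 4 and ARSA against compound 6, and with no filter on low counts ATP6V0E1 missed it against compound 4. In a fit of the 2 groups alone, GAA, NAGLU, ARSA, ASAH1, ATP6V0E1 and ATP6V1F missed it against compound 4 and RRAGD against compound 6. The direction of each named difference was the same in all these fits.

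Compounds 4 and 6, which differ in tert-butyl against cyclohexyl groups, gave 0 of 43 genes called by edgeR, where 0.0448% of all genes were (0.0224% higher, 0.0224% lower), with 14 of the 43 at an unadjusted p under 0.05. DESeq2 called 1, CTSB. The intervals leave room for sizeable differences: CTSB differed by 0.59 on the log2 scale (95% interval 0.31 to 0.86, adjusted p = 0.179), MCOLN1 by 0.55 (0.20 to 0.89, adjusted p = 0.33) and ASAH1 by 0.42 (0.13 to 0.70, adjusted p = 0.381), each higher with compound 4. For CTSL the difference was 0.22 (-0.07 to 0.51), and for NAGLU it was -0.21 (-0.53 to 0.12).

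**Figure D4:**
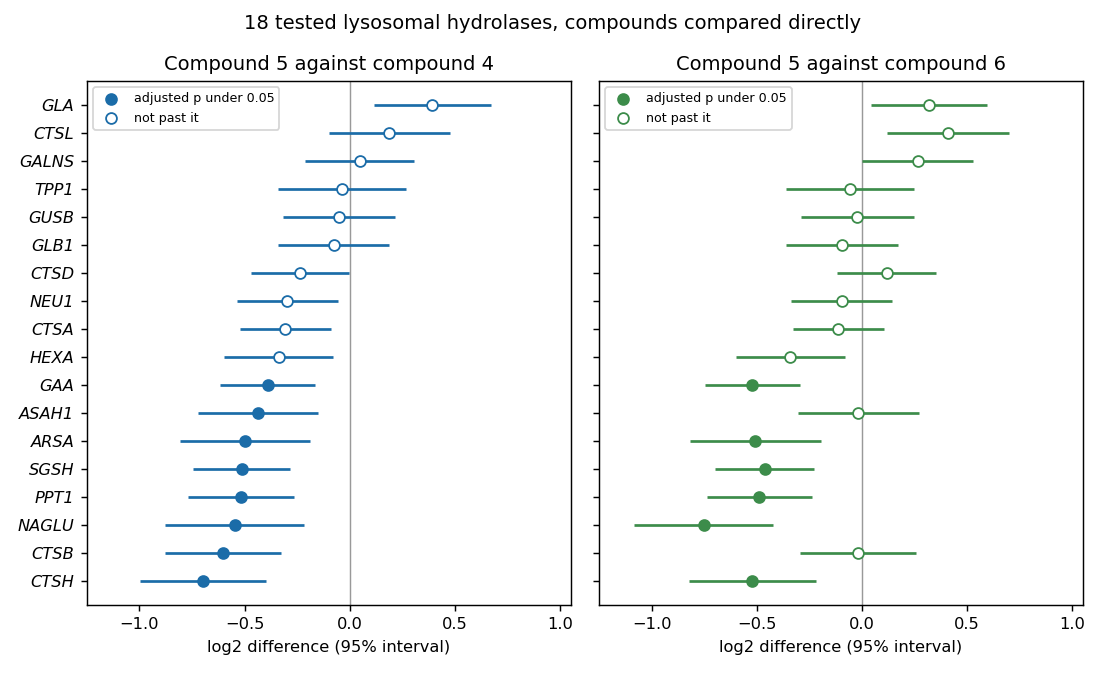
Log2 difference (x axis, with 95% intervals) of the 18 tested hydrolases (y axis) for compound 5 against compound 4 and against compound 6. Filled points passed an adjusted p under 0.05, 8 of 18 on the left and 6 of 18 on the right, and all of them lie below 0.

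Other genes of the lysosome, listed by role, gave counts of their own, to be read against the 11.9%, 28.1% and 4.4% of all genes called with compounds 4, 5 and 6. Of 25 tested further lysosomal enzymes and activators, a list that also holds the ion channels TPCN1 and TPCN2, 0 rose and 2 fell with compound 4, 1 rose and 4 fell with compound 5, and 0 passed with compound 6 (6 at an unadjusted p under 0.05). The 8% and 20% called with compounds 4 and 5 lie below the shares of all genes. GM2A, the GM2 activator, was at 63 and 53.3 CPM in DMSO, 36.3 and 40 in compound 4, 32.4 and 27.7 in compound 5 and 43.4 and 32.6 in compound 6, so that all treated samples lay below the controls. It fell by 0.95 on the log2 scale with compound 5 (adjusted p = 0.00173). Its smaller fall with compound 4 (-0.60, adjusted p = 0.0285) passed the test but lost its call without either DMSO replicate or compound 4 replicate 1.

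Of 17 further membrane proteins, 6 rose and 1 fell with each of compounds 4 and 5, and 1 rose and 1 fell with compound 6. The 41.2% called with each of compounds 4 and 5 stands beside 11.9% and 28.1% of all genes, and the 11.8% with compound 6 beside 4.4%. SLC17A5, the sialic acid exporter, was at 26.4 and 23.6 CPM in DMSO, 45.4 and 51.2 in compound 4, 44.6 and 38 in compound 5 and 32.6 and 34.9 in compound 6 (log2 fold change 0.95 with compound 4, adjusted p = 0.00171). The chloride transporter CLCN7 rose by 0.86 (adjusted p = 0.00184) and the tetraspanin CD63 by 0.78 (adjusted p = 0.00401, its call lost without DMSO replicate 2) with compound 4.

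In the mannose 6-phosphate route, which carries new hydrolases to the lysosome, 2 of 16 genes rose with compound 4, 1 rose and 2 fell with compound 5, and 0 passed with compound 6 (1 at an unadjusted p under 0.05). The 12.5% and 18.8% called with compounds 4 and 5 are near or below the 11.9% and 28.1% of all genes. NAGPA, the enzyme that uncovers the mannose 6-phosphate signal, was at 60.9 and 53.4 CPM in DMSO, 43.6 and 50.9 in compound 4, 29.9 and 31 in compound 5 and 54.6 and 49.2 in compound 6. It fell with compound 5 (log2 fold change -0.91 ± 0.13 SE, adjusted p = 0.000704). SORT1, the sorting receptor sortilin, fell by 0.58 on the log2 scale (adjusted p = 0.0105), but not past the threshold without either DMSO replicate or compound 5 replicate 2. GNPTG, a subunit of the phosphotransferase, rose by 0.60 with compound 4 (adjusted p = 0.0169), a call lost without DMSO replicate 2 or compound 4 replicate 2.

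Of 12 tested V-ATPase paralogs and assembly factors, 0 passed with compound 4 (2 at an unadjusted p under 0.05), 2 rose and 2 fell with compound 5, and 1 fell with compound 6. The 33.3% called with compound 5 is near the 28.1% of all genes. ATP6V0A2, another a subunit, was at 26 and 27.9 CPM in DMSO and 50.3 and 57.5 in compound 5 (log2 fold change 1.00 ± 0.12 SE, adjusted p = 0.000351). ATP6V0E2 was at 155 and 155 CPM in DMSO, 110 and 126 in compound 4, 81.5 and 86.8 in compound 5 and 116 and 96.4 in compound 6, and fell with compound 5 (-0.88, adjusted p = 0.000671) and compound 6 (-0.55, adjusted p = 0.0318). The compound 6 call was lost without any one sample of DMSO or compound 5 or without compound 6 replicate 2. The assembly factor CCDC115 fell by 0.67 with compound 5 (adjusted p = 0.00387), not past the threshold without compound 5 replicate 1.

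Among 28 tested genes of mTORC1, Ragulator and GATOR, the nutrient sensors on the lysosomal surface, 0 rose and 1 fell with compound 4, 3 rose and 3 fell with compound 5, and 1 rose with compound 6. These shares, 3.57%, 21.4% and 3.57%, lie below the 11.9%, 28.1% and 4.4% of all genes. The sestrins, leucine sensors, moved apart. SESN2 was at 22.2 and 22.9 CPM in DMSO, 27.6 and 28.2 in compound 4, 61.2 and 69.2 in compound 5 and 32.1 and 51.7 in compound 6, with log2 fold changes of 1.53 with compound 5 (adjusted p = 0.000396) and 0.90 with compound 6 (adjusted p = 0.0287, its call lost without either DMSO replicate or compound 6 replicate 2). SESN1 was at 20.4 and 23 CPM in DMSO, 10.2 and 11.7 in compound 4, 7.15 and 11 in compound 5 and 14.2 and 11.9 in compound 6, with -0.99 with compound 4 (adjusted p = 0.00919, lost without DMSO replicate 2) and -1.25 with compound 5 (adjusted p = 0.00142). LAMTOR4, a Ragulator subunit, fell by 0.74 with compound 5 (adjusted p = 0.00436).

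Of 10 tested genes known as targets of the TFEB family outside the lysosomal lumen, 5 rose and 1 fell with compound 4, 8 rose and 1 fell with compound 5, and 4 rose with compound 6. The shares called were 60%, 90% and 40%, beside 11.9%, 28.1% and 4.4% of all genes. This list, like the others, was chosen with earlier results of these data known, and the activity of the TFEB family was not tested. GABARAPL1, an autophagosome membrane protein, was at 11.9 and 10 CPM in DMSO, 19.5 and 17.9 in compound 4, 29.6 and 29.1 in compound 5 and 15.8 and 20.8 in compound 6. Its log2 fold changes were 0.77 (adjusted p = 0.0133), 1.42 (adjusted p = 0.000284) and 0.75 (adjusted p = 0.0331) with compounds 4, 5 and 6. The call with compound 4 was lost without DMSO replicate 2, and that with compound 6 without any one sample of DMSO or compound 5 or without compound 6 replicate 2. GPNMB, a transmembrane glycoprotein of lysosomes, went the other way, from 9.65 and 7.64 CPM in DMSO to 3.68 and 5.23 in compound 4, 3.12 and 2.98 in compound 5 and 5.21 and 3.29 in compound 6. It fell to 0.354 of the control level with compound 5 (adjusted p = 0.00348), and by 0.95 on the log2 scale with compound 4 (adjusted p = 0.0431, and 0.059 with the replicate block), a call also lost without any one sample of DMSO or compound 5 or without compound 4 replicate 1.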

How the data were processed

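RNA of 8 samples was sequenced, 2 replicates in each of 4 groups taken from the labels. Per the labels and the study's methods, the authors checked reads with FastQC 0.12.0 and quantified them with Salmon 1.5.0 on GENCODE 38 transcripts (GRCh38), and they deposited estimated counts per gene, given as whole numbers. Salmon divides reads that fit several genes, so genes with shared sequence are less certain, which the share of 31-base words found in other genes (GENCODE 29 transcripts, same build) measures. Gene names came from an Ensembl ID table that matched 60089 of 60230 IDs. Coordinates are those of GENCODE 29, promoters those of RefSeq (GRCh38.p14).

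The counts were fitted in R 4.3.3 with edgeR 4.0.16 (TMM scaling, filterByExpr, glmQLFit and glmQLFTest, all 8 samples in 1 fit by group), with Benjamini-Hochberg adjustment over the 13404 genes tested and a threshold of 0.05. SE is the log2 fold change over the square root of F, and intervals are at 95%. Depth was 9472261 to 13308975 counts per sample, where 3 counts are 0.225 to 0.317 CPM, and this covers counting error only. Replicates differed by more than sampling noise, so no pair looked like 1 library deposited again. Chi-square per degree of freedom was 5.67 in DMSO, 17.96 in compound 4, 6.55 in compound 5 and 9.35 in compound 6. The compound 4 replicates thus differed most, and the part of this in the compound 4 results was not tested. None of this shows that the replicates were separate cultures. On counts simulated from the sample means for compound 5 against DMSO over 13404 genes, 74% of 200 genes changed by 1 on the log2 scale were recovered and 7.74% of calls fell on unchanged genes.

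The genes, lists, named genes and tests were chosen with earlier results of these data known. Values per sample are given for listed genes called in 2 or 3 comparisons with DMSO, for the 3 highest and 3 lowest called with each compound, for TFEB, TFE3, MITF, FLCN and the Rag genes, and for those that the comparison of compounds turns on, which were chosen after their values were seen. Of the other lists, up to 3 called genes with the largest change could be named, and SQSTM1 was left out. Some genes of these lists are not reported here by name. Alternatives were DESeq2 1.42.0, RLE, upper-quartile and library-size scaling, the replicate number as a block, no filter, a floor of 10 counts in each sample, only the 2 groups compared, and each sample left out. The replicate numbers come from a day label whose meaning is open. Same-numbered samples correlated at -0.083 to 0.16 in their deviations from the group means, so the numbers were not taken to pair the samples.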

Additional observations from a re-analysis of the deposited data

How the results depend on the processing

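No called change of a named gene turned direction under any alternative run, but values near 0 that were not called did, as given above for the V-ATPase genes. The medians over the listed genes moved by less than 1 SD under each alternative. With only the 2 groups in the fit, the genes called with compound 5 against DMSO became 23 and those against compound 4 became 4, while the calls over all genes became 5127 and 897. LAMP1, CTSD, GALNS and PSAP with compound 4 missed the threshold in that fit, and LAMP1, GALNS and ATP6V0D1 with library-size scaling. Between compounds 4 and 6, DESeq2 called 1 gene and the fit with no filter on low counts 1, CTSB in both. Leaving out 1 sample gave 3 to 14 called genes for compound 4 against DMSO (3 without DMSO replicate 2, 6 without DMSO replicate 1), 7 to 18 for compound 5 (8 and 7 without DMSO replicates 1 and 2, 7 without compound 5 replicate 1) and 0 to 3 for compound 6. It gave 0 to 11 for compound 5 against compound 4, 0 to 11 for compound 5 against compound 6, and 0 to 1 for compound 4 against compound 6, the 1 being ATP6V0B without compound 4 replicate 1. Over all genes these comparisons gave 111 to 2709, 143 to 1875 and 0 to 117 calls. Over all genes, the 1598, 3763 and 590 calls against DMSO became 663, 1685 and 90 without DMSO replicate 1 and 335, 2007 and 1 without DMSO replicate 2, and the 6 calls between compounds 4 and 6 became 74 with DESeq2 and 294 with no filter. Of the 28 calls of listed genes against DMSO, 9 were past the threshold in all 8 such fits. A lone sample left in a group is assumed there to vary like the other groups.

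With the replicate number as a block, 12, 14 and 2 listed genes were called with compounds 4, 5 and 6, and 9, 7 and 0 for compound 5 against 4, 5 against 6 and 4 against 6, beside 1549, 3676, 499, 1636, 1224 and 6 of all genes. The block changed the calls of LAMP1, ASAH1, ATP6V0E1, FLCN and RRAGD given above and of no other listed gene. The numbers are not shown to pair the samples.

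With 2 samples a group, the depth of these libraries did not allow a difference to be detected in CTSZ, CTSF and MITF.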
